A study of Mus musculus with 4 samples.

Results

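The Hox genes are the homeobox transcription factors that lie in the HoxA, HoxB, HoxC and HoxD clusters, on mouse chromosomes 6, 11, 15 and 2. They were taken as the non-control probes whose deposited gene name was Hoxa, Hoxb, Hoxc or Hoxd followed by a number. The rule gave 39 genes with 44 probes, out of 31896 gene names with 39429 probes on the array. The arrays compared RNA of 2 populations of skin epithelial cells from adult C3H/HeN mice, both sorted for CD49f (the integrin subunit encoded by Itga6) and CD34. The first population, called 0p, was sorted from primary skin epithelial cells. The second, called 15p, was the same kind of cell after serial culture up to the 15th culture, each culture lasting 10 days on type I collagen with Wnt-3a and ending with a new sort. Wnt-3a is given in the labels for both RNAs, and no transgene or deletion is named. Each of 2 biological replicates was hybridised on 2 arrays with the dyes exchanged, so that 15p RNA carried Cy5 on one array (here the forward array) and Cy3 on the other (the reverse array). Separate animals are not stated for the replicates, so the p-values measure the spread between these 2 samples, which may be technical.

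Hox proteins bind DNA through a homeodomain, usually together with cofactors of the Pbx, Meis and Pknox families, and set the identity of body regions in the embryo. Within a cluster the genes are numbered by paralog group, and low-numbered genes at the 3′ end act earlier and further to the front of the body than high-numbered genes at the 5′ end. Adult skin keeps a Hox code that reflects body site, best known from dermal fibroblasts, and Hoxc13 is needed in the hair follicle for a normal hair shaft.

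The sorted cells gave RNA signal for the basal keratinocyte markers and most suprabasal ones, but little for Cd34, the gene of one of the sorting antigens. The arrays read RNA and not the surface protein used for the sort, and a weak probe would look the same. Krt5, Krt14 and Itga6 were well above background on all 4 arrays in both RNAs. Of 4 suprabasal markers, Krt10, Ivl and Lor were so too, and Krt1 was so on no array. Cd34 was well above background on 0 of 4 arrays in 15p RNA and on 1 of 4 in 0p RNA, and the bulge markers Lhx2 and Lgr5 on no array. The bulge markers Sox9 and Nfatc1 were so on all 4 arrays in both RNAs. The log2 ratio of 15p over 0p for Sox9 was -0.38 ± 0.60 (SD, n = 2; limma adjusted p = 0.749), with -1.56 on the replicate 2 forward array and -0.06 to 0.14 on the others. Of 9 dermal fibroblast markers 2 were well above background throughout (Col3a1 and Twist2), and 5 never were, among them Pdgfra, Dcn and Lum. Markers of other skin cells were tested in 4 of 6 cases for immune cells, 4 of 6 for melanocytes and 3 of 5 for endothelium. Their part in the Hox signal was not tested. Between 55% and 68.1% of probes were well above background in an RNA on an array. The replicate 2 forward array stood apart: the SD of its log2 ratios over all tested genes was 0.29, against 0.13 to 0.14 on the other 3 arrays. It held 108 genes beyond a 2-fold ratio, against 0 to 4 elsewhere. In its 0p RNA the negative controls had a median intensity of 75.1. For 0p RNA on the other arrays that median was 47.3 to 50.6. Slide and replicate cannot be told apart, since each replicate had its own slide.

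Both RNAs gave signal well above background from the 3′ and middle parts of HoxA and HoxB and from part of HoxC. HoxD gave almost none at that level. A gene counted as tested when a probe was well above background, by the scanner software's own flag, on each of the 4 arrays for 15p RNA or for 0p RNA. From here on, above background stands for this flag. This held for 22 of 39 Hox genes (56.4%), against 54.5% of all gene names, so the share itself lies near the background. HoxA had 9 of 11 genes tested, HoxB 8 of 10, HoxC 5 of 9 and HoxD 0 of 9. A flag compares a probe with its own background and says nothing of one gene's level against another's, and in bulk RNA fewer cells of a type and less RNA per cell cannot be told apart.

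By position, 5 of 8 genes of paralog groups 1 to 3 were tested, 12 of 15 of groups 4 to 8 and 5 of 16 of groups 9 to 13. HoxA was above background without a gap from Hoxa2 to Hoxa10, and HoxB from Hoxb2 to Hoxb9. In HoxC the genes Hoxc4, Hoxc5, Hoxc6 and Hoxc9 were tested, and so was Hoxc13, the hair shaft regulator, at the far 5′ end. Hoxc13 was dim, with intensities of 76.9 to 102.5 in 15p RNA and 65.8 to 104.5 in 0p RNA. Hoxa9 read 76.2 to 113.7 and 82.1 to 133.3. The pooled ranges of both genes overlap with that of Hoxb13, which was not tested. In the same RNA on the same array, Hoxa9 read above Hoxb13 each time, and Hoxc13 did so in most readings. Each of the 22 tested genes reached the flag on all 4 arrays in both RNAs, so none was measured in one population alone.

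**Figure D1:**
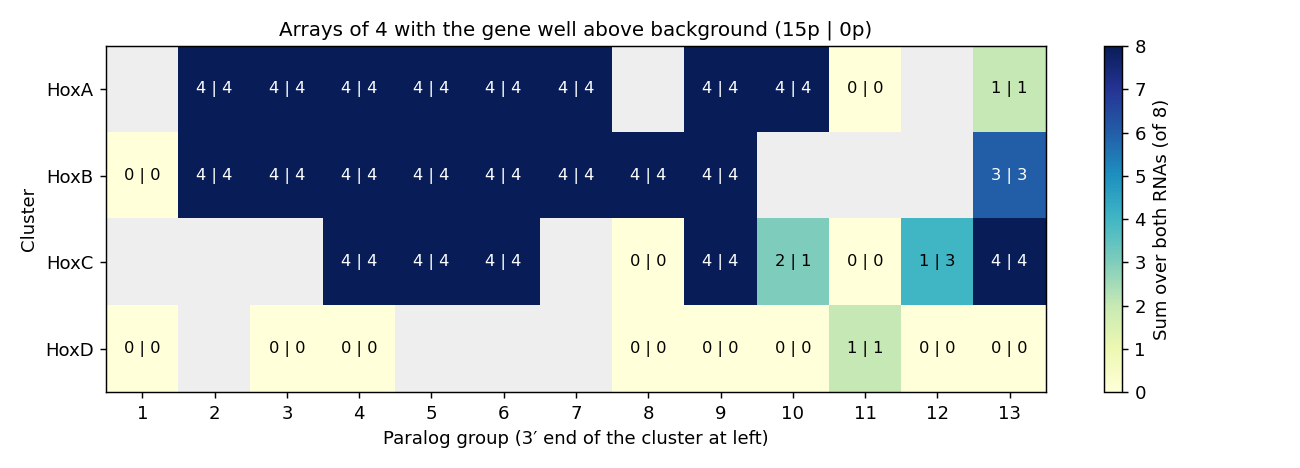
Number of arrays, out of 4, on which each Hox gene was well above background in 15p RNA (left number) and 0p RNA (right number), by cluster (rows) and paralog group (columns); grey cells carry no value here and colour gives the sum over both RNAs. The tested genes shown read 4 and 4, and the HoxD row reads 0 and 0 except for Hoxd11 with 1 and 1.

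In 12 Hox genes no array reached the well-above-background flag in either RNA (30.8%, against 27.8% of all gene names). These were Hoxa11, Hoxb1, Hoxc8, Hoxc11 and 8 HoxD genes. For the HoxD genes the 10 probes gave mean spot intensities between 40.7 and 95.3, and 33 of their 80 measurements (41.2%) exceeded the 95th percentile of negative controls in the same dye of the same array. That percentile ranged from 51.2 to 85.1. By definition few negative controls exceed it, so the HoxD readings lay above it more often than the controls. Hoxb1, which acts in the embryonic hindbrain, exceeded it in 0 of 8 measurements, and Hoxd4 in 7 of 8, with 51.4 to 90.2. Hoxc8, between the tested Hoxc6 and Hoxc9, also exceeded it in 7 of 8, with 51.95 to 91.08. Over all 12 genes 38 of 96 measurements (39.6%) exceeded it. These values bound the signal only, and missing the flag does not show that a transcript was absent.

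Another 5 genes were above background on some arrays and had no test. Hoxb13, known from the prostate and the posterior body, reached the flag on 3 of 4 arrays in each RNA, with intensities of 65.5 to 87.6 in 15p RNA and 58.9 to 103 in 0p RNA. The 5′ gene Hoxc12 reached it on 1 array in 15p RNA and on 3 arrays in 0p RNA. Its intensity in 15p RNA was 65.8, 66.9, 62.5 and 105, and in 0p RNA 62.4, 78.5, 103 and 106, in the order replicate 1 forward, replicate 1 reverse, replicate 2 forward, replicate 2 reverse, the order used for array values throughout. The ranges overlap, and the dyes and the level of negative controls differ between entries. Hoxc10, a gene of the hindlimb, reached the flag on 2 arrays in 15p RNA and 1 in 0p RNA. Hoxa13 and Hoxd11, genes of the limb, did so on 1 array in each RNA, and for both genes this was the replicate 2 reverse array, the array with the highest share of probes above background.

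Some probes lie in the coding part that makes these genes a family, and a pair is shown, one flagged on some arrays and one on none. In these sequences, read 5′ to 3′ from the deposited probe column with positions in the mm9 build, capitals mark codons of the homeodomain's recognition helix, the part that enters the major groove of DNA. The Hoxc12 probe (chr15:102768889-102768948, plus strand) is the partly detected one described above. The Hoxc11 probe (chr15:102787022-102787081, plus strand) was above background on none.
Hoxc12: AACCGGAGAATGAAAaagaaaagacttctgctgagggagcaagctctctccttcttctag
Hoxc11: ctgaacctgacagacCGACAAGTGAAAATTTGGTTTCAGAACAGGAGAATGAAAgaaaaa
These probes carry 5 and 13 codons of the helix. The whole 13-codon stretch is on the Hoxc11 probe, which reached the flag on no array. The Hoxc11 probe exceeded the 95th percentile of negative controls in 4 of 8 measurements.

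Hoxa11 and the transcript from the opposite strand differed in the flag, both at low intensities. The Hoxa11 probe (chr6:52192107-52192166, minus strand) measured 48.3 to 82.7 and was never above background. The probe for Hoxa11os, the non-coding antisense transcript of that locus, lies 7602 bases from the Hoxa11 probe (chr6:52199709-52199768, plus strand). Hoxa11os was above background on all 4 arrays in both RNAs, at 69.8 to 118.7. The pooled ranges overlap, but in the same RNA on the same array the Hoxa11os probe read higher each time. These are different probes, so the readings do not compare the levels of the transcripts. Its sequence is given because it was the one tested of 2 non-coding cluster transcripts found by name.
Hoxa11os: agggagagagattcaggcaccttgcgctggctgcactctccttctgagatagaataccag
Its log2 ratio of 15p over 0p was 0.03 and -0.06 on the replicate 1 arrays and 0.05 and 0.03 on the replicate 2 arrays, a mean of 0.01 ± 0.04 (SD, n = 2; limma adjusted p = 0.967). Hoxd3os1 in HoxD was above background on no array.

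The starts of Hoxb8, tested, and of its paralog Hoxd8, never above background, are shown side by side. Each is the 250 bases before the RefSeq start in GRCm38.p6, with CpG dinucleotides in capitals: chr11:96281655-96281904 and chr2:74704365-74704614, both on the plus strand.
Hoxb8: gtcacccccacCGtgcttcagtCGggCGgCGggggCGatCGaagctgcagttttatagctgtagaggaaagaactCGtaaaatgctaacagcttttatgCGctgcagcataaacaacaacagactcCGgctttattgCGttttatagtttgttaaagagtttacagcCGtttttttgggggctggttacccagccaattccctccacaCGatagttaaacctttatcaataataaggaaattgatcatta
Hoxd8: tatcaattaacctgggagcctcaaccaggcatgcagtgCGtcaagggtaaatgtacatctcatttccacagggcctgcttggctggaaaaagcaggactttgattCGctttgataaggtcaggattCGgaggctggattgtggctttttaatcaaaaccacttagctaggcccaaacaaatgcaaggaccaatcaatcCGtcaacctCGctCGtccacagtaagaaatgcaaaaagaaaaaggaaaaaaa
The Hoxb8 stretch holds 12 CpG and the Hoxd8 stretch 6. RefSeq promoters, which run on for 50 bases past the start, were at hand for 22 of the 39 genes. Their median CpG count was 13.5 in the 10 tested genes (range 4 to 29) and 17.5 in the 10 never above background (range 4 to 37), beside 7 over 32851 promoters of the same length. The counts of tested genes and of those never above background overlap over most of their range. TGATNNAT, a motif bound by Hox and Pbx proteins together and searched on both strands, was in 4 of the 22 (Hoxa2, Hoxb1, Hoxb8 and Hoxd11) and in 8.8% of all promoters.

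The main comparison asked which Hox genes differed between 15p and 0p cells. Whether 0p RNA was taken before or after exposure to Wnt-3a is not stated, so how much culture the ratio spans is not settled. None of the 22 was called higher or lower (limma, Benjamini-Hochberg adjusted p below 0.05), and of all 17376 tested genes 0% were called in either direction. The lowest adjusted p was 0.749, among Hox genes as among all genes. The median log2 ratio of the tested Hox genes was 0.01, against 0.00 over all genes, and 11 of 22 lay above 0 (50%, against 51.4% of all genes). In 18 of 22 the mean lay within 0.1 of 0, a count that was not set against all genes. For 21 of 22 the 95% confidence interval lay within a 1.5-fold change either way, as it did for 99.7% of all tested genes. Among Hox genes the exception was Hoxb8. With 1 residual degree of freedom, the width of these intervals rests largely on spread shared across genes. They also belong to the main processing: with the deposited value table Hoxa9 and Hoxc13, both dim, lay farther from 0, at -0.156 and 0.184. The count within 0.1 of 0 depends on the processing too. Hoxa5 and Hoxc5, within 0.1 here, were 0.103 and -0.1205 with that table.

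Before adjustment 4 of 22 Hox genes (18.2%) had a limma p under 0.05, against 6.31% of all genes: Hoxa10, Hoxa6, Hoxb8 and Hoxb9, in order of p. These 4 fall into 2 kinds. Hoxa6 was lower on every array, and the others were highest on the replicate 2 forward array. Hoxb8 and Hoxb9 had a replicate 1 mean of 0.00, whereas Hoxa10 also read 0.16 on the replicate 1 reverse array.

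**Figure D2:**
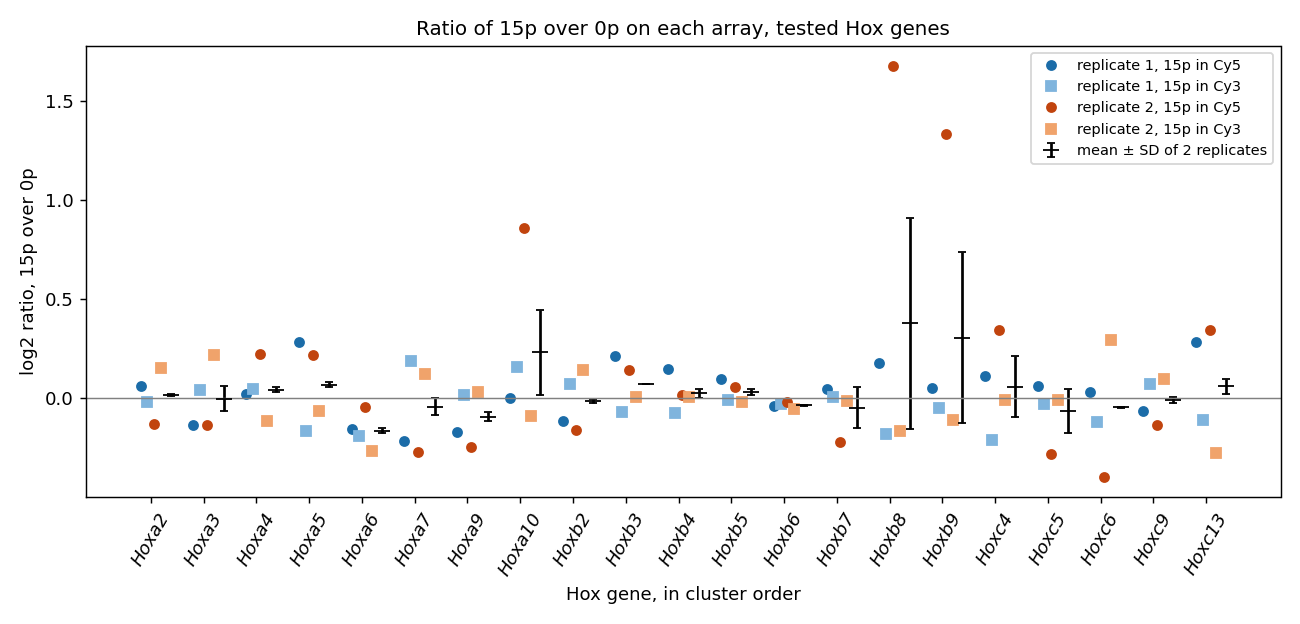
Log2 ratio of 15p over 0p on each of the 4 arrays for tested Hox genes in cluster order, with the mean ± SD of 2 replicates in black. Most points lie within 0.4 of 0; Hoxb8 (1.67), Hoxb9 (1.33) and Hoxa10 (0.86) on the replicate 2 forward array lie above the rest.

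Hoxb8, known for holding myeloid progenitors in an immature state when overexpressed, had the highest mean. Its log2 ratio of 15p over 0p was 0.18 (forward) and -0.18 (reverse) in replicate 1, and in replicate 2 it was 1.67 and -0.16. One array was high, and the other 3 lay around 0 with a sign that followed the dye. The mean was 0.38 ± 0.53 (SD, n = 2), with a 95% interval from 0.08 to 0.67 and a limma adjusted p of 0.749. In the Cy5 dye the spot (chr11:96146576-96146635) measured 427 and 1489.6 in 15p RNA of replicates 1 and 2, and 395 and 567 in 0p RNA. In Cy3 it measured 189 and 323 in 15p RNA, and 189.9 and 366 in 0p RNA. Of these 8 raw readings that of 15p RNA in Cy5 in replicate 2 was the highest, and the same RNA in Cy3 read lower than 0p RNA in Cy3.

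Hoxb9, the 5′ neighbour of Hoxb8 and a gene of thoracic patterning, repeated this. Replicate 1 gave log2 ratios of 0.05 and -0.05 and replicate 2 gave 1.33 and -0.11, a mean of 0.30 ± 0.43 (SD, n = 2; limma adjusted p = 0.749). In Cy5 the 15p signal was 1616 and 4423 in replicates 1 and 2, and the 0p signal 1538 and 2314. In Cy3 the 15p signal was 693 and 1258, and the 0p signal 677.5 and 1278. Hoxa10, which acts in the uterus and in blood progenitors, had ratios of 0.00 and 0.16 in replicate 1 and 0.86 and -0.09 in replicate 2, a mean of 0.23 ± 0.22 (SD, n = 2; limma adjusted p = 0.749). Its Cy5 signal in 15p RNA was 307 and 474, and in 0p RNA 285 and 386. In Cy3 its 15p signal was 184 and 238, and its 0p signal 163 and 232.

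**Figure D3:**
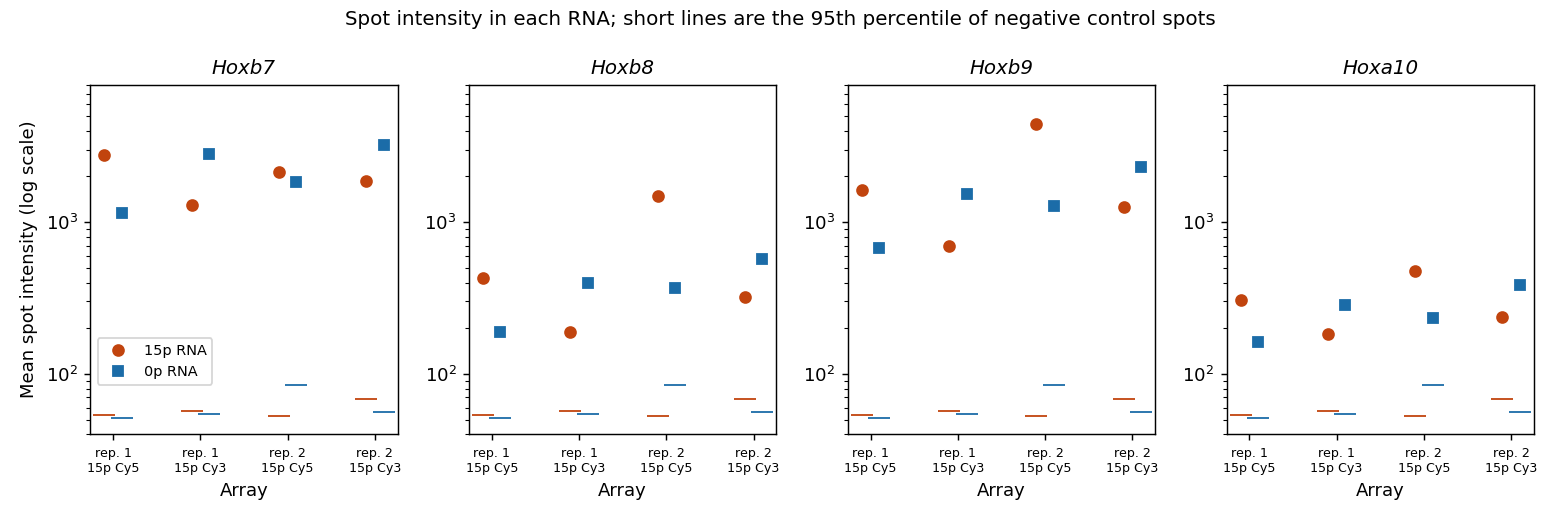
Mean spot intensity (log axis) of Hoxb7, Hoxb8, Hoxb9 and Hoxa10 in 15p RNA (circles) and 0p RNA (squares) on the 4 arrays, with short lines at the 95th percentile of negative control spots. Hoxb8 and Hoxb9 in 15p RNA reach 1489.6 and 4423 on the replicate 2 forward array, while Hoxb7 reads 2147 there and 2772 on the replicate 1 array of the same dye.

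On that one array Hoxb8 had the highest ratio of all 17376 tested genes, Hoxb9 ranked 5 and Hoxa10 ranked 51. On the dye-exchanged array of the same RNAs they ranked 15509, 14027 and 13179. The other 19 tested Hox genes stayed between -0.39 (Hoxc6) and 0.34 (Hoxc4) on the high array. Hoxb7, which lies next to Hoxb8 on the 3′ side, read -0.22 there, and Hoxa9, next to Hoxa10, read -0.25. The high ratios were thus shared by the neighbours Hoxb8 and Hoxb9 and not by Hoxb7. The part of the array itself in these ratios was not tested beyond this exchange of dyes.

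**Figure D4:**
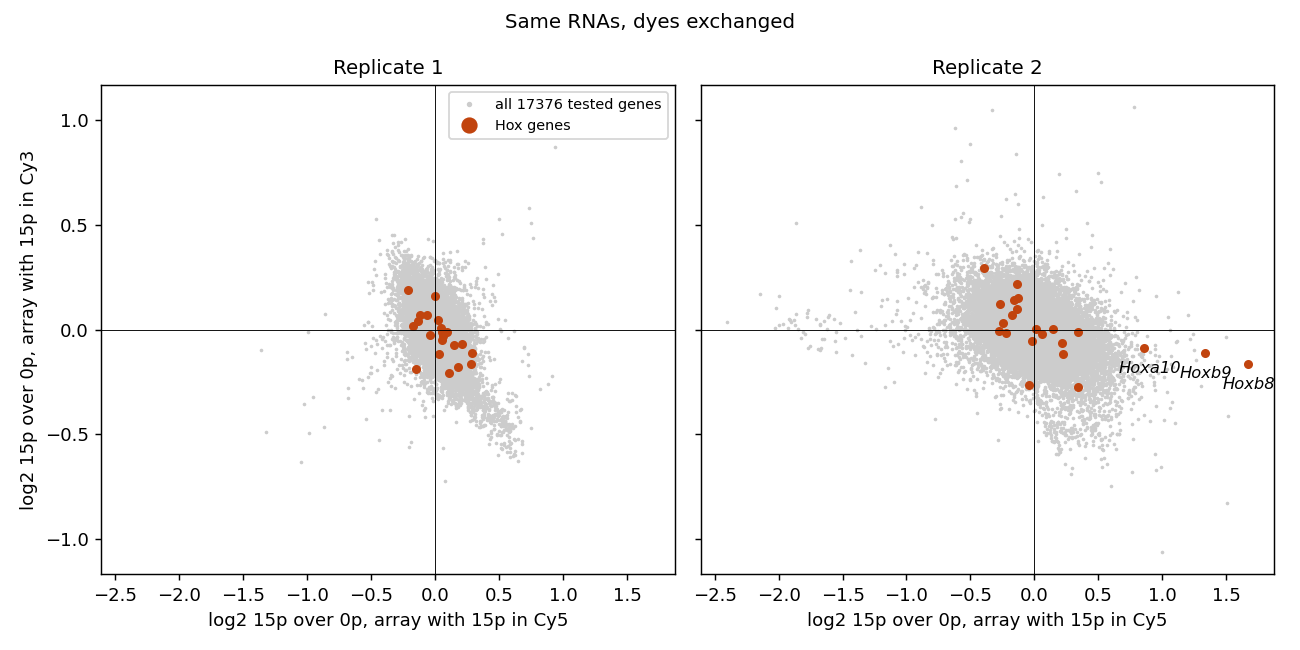
Log2 ratio of 15p over 0p on the forward array (15p in Cy5, horizontal) against the reverse array (15p in Cy3, vertical) for replicate 1 and replicate 2, with all 17376 tested genes in grey and the Hox genes in colour. A difference between the RNAs would put a gene in the upper right or lower left; Hoxb8, Hoxb9 and Hoxa10 in replicate 2 lie far right at 1.67, 1.33 and 0.86 with vertical values of -0.16, -0.11 and -0.09.

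These 3 genes also carried the results that depended on the fit. With replicate as a block and a dye term, a fit that shares one spread across all genes, Hoxb8 was called higher (limma adjusted p = 0.00795), as 1 of 60 genes called. Without the replicate 2 forward array the log2 ratios were 0.00 for Hoxb8, -0.02 for Hoxb9 and 0.02 for Hoxa10, with no Hox gene called. Without the replicate 1 forward array, where the high array stands alone for its dye, they were 0.75, 0.62 and 0.45, and all 3 were called among 3104 genes. That fit takes its spread from the 2 reverse arrays.

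Hoxa6, a gene of the neck and upper trunk, was the lowest on average. Replicate 1 gave log2 ratios of -0.15 and -0.19 and replicate 2 gave -0.04 and -0.26, below 0 on all 4 arrays. The mean was -0.16 ± 0.01 (SD, n = 2), with a 95% interval from -0.28 to -0.04 and a limma adjusted p of 0.749. With the scanner's processed signals it was -0.28. In Cy5 the 15p signal was 217 and 167 and the 0p signal 226 and 330.2 in replicates 1 and 2, and in Cy3 the 15p signal was 122 and 189 and the 0p signal 137 and 175. These raw readings of the RNAs overlapped in Cy3 and not in Cy5. The probe (chr6:52158194-52158253, minus strand) lies in the coding part and holds, in capitals, the codons of the hexapeptide core through which Hox proteins contact Pbx.
Hoxa6: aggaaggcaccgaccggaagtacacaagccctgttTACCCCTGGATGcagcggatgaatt
Hoxb6, its paralog, was also below 0 on all 4 arrays, at -0.04, -0.03, -0.02 and -0.05, a mean of -0.04 ± 0.001 (SD, n = 2; limma adjusted p = 0.893). Thus 2 of 22 Hox genes kept one sign on all arrays (9.09%), against 6.78% of all genes, a share near the background. Both replicates shared a sign in 14 of 22 (63.6%), against 57% of all genes.

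The remaining genes at the ends of the order were small against the spread of the arrays. Hoxa9, a regulator of blood stem cells, had ratios of -0.17 and 0.02 in replicate 1 and -0.25 and 0.03 in replicate 2, a mean of -0.09 ± 0.02 (SD, n = 2; limma adjusted p = 0.761), or -0.20 with processed signals. Its second probe was above background on 1 array in 15p RNA and 2 in 0p RNA and read -0.01 ± 0.10. Hoxc5 read 0.06, -0.03, -0.28 and -0.01, and Hoxb7 read 0.04, 0.01, -0.22 and -0.02. Hoxc6 read 0.03, -0.12, -0.39 and 0.30, so that replicate 2 pointed in opposite directions in the 2 dyes. The means of these 3 were -0.06 ± 0.11, -0.05 ± 0.10 and -0.05 ± 0.005 (SD, n = 2), with limma adjusted p from 0.836 to 0.871.

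On the higher side, Hoxb3, a gene of the hindbrain and pharynx, had a mean of 0.07 ± 0.001 from its brighter probe, with ratios of 0.21, -0.07, 0.14 and 0.00. The dimmer probe of the gene gave -0.002 ± 0.05, so the probes differed in sign. Hoxa5, needed for lung development, read 0.28 and -0.17 in replicate 1 and 0.22 and -0.06 in replicate 2. It was above 0 whenever 15p carried Cy5 and below 0 whenever it carried Cy3, and its mean was 0.07 ± 0.01 (SD, n = 2; limma adjusted p = 0.822). Hoxc13 showed the same dye pattern, with 0.29, -0.11, 0.34 and -0.28 and a mean of 0.06 ± 0.04 (SD, n = 2; limma adjusted p = 0.834), or 0.18 in the deposited value table. Hoxb4, which expands blood stem cells when overexpressed, read 0.15, -0.07, 0.02 and 0.00, a mean of 0.02 ± 0.02 (SD, n = 2; limma adjusted p = 0.933).

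Such a split by dye, with one sign in Cy5 and the other in Cy3, was seen in 11 of 22 Hox genes (50%), against 32.3% of all genes. Averaging the dye-exchanged arrays removes it from the means only as far as it is equal in size on both arrays, which was not tested. Across all tested genes the ratios of dye-exchanged arrays correlated at r = -0.55 in replicate 1 and -0.40 in replicate 2, and the means of the 2 replicates at r = 0.09. Both are descriptions over genes and carry no test. The tested genes not described above, among them Hoxa2, Hoxa3, Hoxa4, Hoxb2, Hoxb5 and Hoxc9, had means from -0.04 (Hoxa7) to 0.06 (Hoxc4), with single arrays from -0.27 to 0.34.

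By cluster, the median log2 ratio was -0.002 over 9 HoxA genes, 0.03 over 8 HoxB genes and -0.01 over 5 HoxC genes. By position it was -0.002 over paralog groups 1 to 3, -0.01 over groups 4 to 8 and 0.06 over groups 9 to 13, the last group of 5 genes including Hoxb9 and Hoxa10. The groups' ranges overlap, and no cluster or position was set apart beyond its members' spread.

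The cofactors that work with Hox proteins were present and did not pass the test. Of 11 Pbx, Meis, Pknox and Tgif genes, 10 were tested and 0 called, with a median log2 ratio of 0.01. Meis1 and Meis2, which join Hox and Pbx in complexes, had means of -0.01 ± 0.04 and 0.01 ± 0.14 (SD, n = 2). The values farthest from 0 were -0.09 ± 0.14 for Pbx4 and 0.08 ± 0.06 for Pknox1.

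Chromatin regulators of the clusters gave a like picture. The 16 genes include the activating Kmt2a and Men1 and the Polycomb component Suz12. Of the 16, 14 were tested and 0 called, with a median of -0.05 and 4 above 0, beside 51.4% of all genes. Cdx2, a homeobox activator of Hox genes in the embryo, was above background on no array. Kdm6b, which removes the Polycomb mark from histone H3, had the value farthest from 0 at 0.17 ± 0.12, with -0.14 and 0.31 in replicate 1 and 0.32 and 0.19 in replicate 2 (limma adjusted p = 0.749). Suz12 read -0.12 ± 0.04 with 3 of 4 arrays below 0. Men1 and Kdm6a read 0.12 ± 0.11 and 0.11 ± 0.14.

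Retinoic acid is an inducer of 3′ Hox genes. Of 18 genes of its synthesis, binding, breakdown and receptors, 13 were tested and 0 called, with a median of 0.02. Of the 13, 10 lay above 0, beside 51.4% of all genes. The value farthest from 0 was -0.15 ± 0.18 (SD, n = 2) for Rdh10, which makes retinaldehyde. Neighbouring genes outside the clusters gave 14 of 17 tested and 0 called, with a median of -0.03. Among them Tax1bp1, close to HoxA, was farthest from 0 at -0.22 ± 0.25, and its array values of -0.17, 0.08, -0.78 and -0.02 again had their extreme on the replicate 2 forward array. The largest absolute ratio fell on that array in 14 of 22 Hox genes (63.6%) and in 56.8% of all genes.

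Hair genes linked to Hoxc13 and Foxn1 were tested in 6 of 10 cases with 0 called. Each of the 6 had a mean above 0, from 0.01 to 0.07, beside 51.4% of all genes above 0. Foxn1, the hair shaft regulator, read -0.06, 0.07, 0.20 and -0.11, a mean of 0.03 ± 0.03 (SD, n = 2), and the hair keratin Krt86 read 0.07 ± 0.03. Krt35, a hair shaft keratin, was above background on no array. Among the basal markers Krt5 read 0.00 ± 0.04, Itga6 0.03 ± 0.04 and Krt14 0.19 ± 0.12, the last with 0.73 on the replicate 2 forward array. None of the 7 basal, 3 suprabasal, 2 bulge or 2 fibroblast markers tested was called.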

How the data were processed

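The deposited files are scanner outputs of 4 two-colour Agilent arrays, quantified by the authors with Agilent Feature Extraction 10.7.3.1 per the file headers and the submitters' processing notes. Deposited spot intensities (mean and local background, linear scale), the deposited log10 ratios and the well-above-background flags (value other than a measurement, 0 or 1) were used, with probe positions in mm9. Intensities were corrected by normexp (offset 50) and normalised by loess within each array with limma 3.58.1 in R 4.3.3. Control spots and 154 to 286 of 43020 spots per array that carried outlier flags were left out. Ratios were turned to 15p over 0p by the dyes in the titles, spots averaged per probe, probes filtered on the flag (all 4 arrays in 15p or in 0p RNA), and the brightest probe kept per gene. Dye-exchanged arrays of one replicate were averaged, and limma tested the 2 means against 0 with Benjamini-Hochberg adjustment over 17376 genes. Having only 2 replicates limits the precision.

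Replicate numbers pair arrays because the titles give one number to an array and to its dye swap, read here as the same RNAs. Deviations of equally numbered arrays from the mean of their dye orientation correlated at -0.258. Shared RNA would give a positive correlation, so the values do not bear out the pairing, which rests on the titles alone. The deposited value table holds log10 ratios of Cy5 over Cy3, which differed from the scanner files' ratios by at most 0.00449, with column medians of 0. Members and gene lists were chosen with earlier results of these data known. Named genes were the 5 highest and 5 lowest means, those of one sign on all arrays, Hoxc13, Hoxa9, Hoxb4 and Hoxb13, members seen on some arrays, up to 4 per list with the largest absolute mean, and fixed markers; a few of these items are not reported here. The fit was tested on simulated data. Alternatives covered background correction, normalisation, the filter, probe choice, the replicate block, separate channels, and leaving out arrays and replicates.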

Additional observations from a re-analysis of the deposited data

Results flagged for a closer look

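Hoxb9 on the replicate 2 forward array stood apart from the other 3 arrays at a log2 ratio of 1.33. Its gap to the nearest array was 0.888 of the whole range, above Dixon's 95% critical value for 4 values. It was the only such case among the 22 tested Hox genes, and chance alone gives about 1 in 20. Hoxb8 and Hoxa10 on the same array had gaps of 0.807 and 0.738 of their ranges, below that value.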

How the results depend on the processing

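Limits come first from the number of arrays: the 2 replicate means leave 1 residual degree of freedom, and genes near background have only a bound. The number of Hox genes called was 0 in the tests made under the alternatives, except in the replicate block with a dye term, crossed pairing and the fit without the replicate 1 forward array. The replicate block, an analysis of the pairing by replicate number, called 60 genes (7 higher, 53 lower), of which 1 was a Hox gene, Hoxb8. Crossed pairing, added after seeing the data, has the same residual contrast and called 60 genes, 1 of them a Hox gene. Without a filter on dim probes 1 gene was called, 39 Hox genes entered, and their median was -0.0061. Leaving out single arrays gave 0 to 3104 called genes, of which 0 to 3 were Hox genes; 87 genes were called without the replicate 2 forward array. The Hox median ranged from -0.0254 to 0.0188 over those fits. It was 0.0107 and 0.0095 without replicate 1 and without replicate 2. It was -0.0337 with the scanner's processed signals, where all genes had a median of -0.03, then 0.0151 with median centring (all genes 0.02), and -0.0051 with at least 3 arrays above background. Trend and robust moderation left 0 genes and 0 Hox genes at an unadjusted p under 0.05, and separate channels 44 and 0.

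With processed signals and with the deposited value table Hoxa6 was -0.278 and -0.238, Hoxa9 -0.196 and -0.156, Hoxc5 -0.1605 and -0.1205, and Hoxc13 0.145 and 0.184. No test was made without a whole replicate. Signs turned for several genes near 0 and for Hoxb9. Hoxb4 was -0.0100 with processed signals. With one array or replicate left out, Hoxb4 ranged from -0.0091 to 0.0575, Hoxb7 from -0.119 to 0.0248 (0.0197 where turned by one array), Hoxb9 from -0.0154 to 0.624, Hoxc5 from -0.150 to 0.0218, and Hoxc6 from -0.153 to 0.0609 (also turned at 0.0576). For Hoxb9, Hoxb7 and Hoxc5 the array left out was the replicate 2 forward array. The cause was not tested.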

Other observations

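Of 25 non-Hox homeobox genes of skin, 16 were tested and 0 called (limma), with a median log2 ratio of 0.03. Of the 16, 12 lay above 0, beside 51.4% of all genes. The values farthest from 0 were 0.14 ± 0.13 for Irx5, 0.12 ± 0.08 for Msx2, 0.12 ± 0.03 for Hopx and 0.12 ± 0.10 for Dlx1 (SD, n = 2). Of 10 homeobox genes linked to the clusters or of ParaHox type, 0 were tested, and 6 were above background on no array: Evx1, Evx2, Gsx2, Pdx1, Mnx1 and En1.

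Inside the spans of the clusters some probes without a Hox gene name were above background on all 4 arrays in both RNAs. One lay in HoxD (chr2:74588186-74588245, minus strand, mm9), where no Hox gene was tested, and read 134 to 224 in 15p RNA and 123 to 243 in 0p RNA, with a mean log2 ratio of -0.06 ± 0.01 (SD, n = 2). In HoxA the probe for 2700086A05Rik (chr6:52160572-52160631, minus strand) read 0.04 ± 0.04.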
